A study of Mus musculus with 24 samples.

Results

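The genes followed here, 8 in number, are ones that pulsatile growth hormone is known to hold low in the liver, in mice fed a methionine-restricted (MR) or control (Con) diet. The list was Cyp2b9, Cyp2b13, Cyp2a4, Cyp3a44, Sult3a1, Cux2, A1bg and Hao2. They were chosen by name, with their higher level on MR in these livers already known, so every difference between the diets below is a description and carries no test. Counts were listed for 7 of the 8 genes, among 15160 genes in all, and Sult3a1 was not analysed here. All 7 passed the filter on low counts that left 13336 genes for the fits.

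Male rodents release growth hormone from the pituitary in pulses, whereas release in females is more continuous. Each pulse activates the transcription factor STAT5b in hepatocytes, and the pattern of activation keeps a male-biased set of liver genes on and a female-biased set off. The genes described here belong to the second set: they are low in male liver, where the pulses are known to hold them low. Several of them encode cytochrome P450 enzymes that oxidise steroids and foreign compounds, and 1 of them, Cux2, is itself a transcription factor.

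Liver RNA came from 24 male mice, 6 in each of 4 groups, each library being 1 mouse. WT mice carried floxed Nfe2l2 alleles without Cre (NRF2fl/fl), and NRF2 KO mice (NRF2fl/(alb)) carried the same floxed gene with Cre driven by the albumin promoter, which is active in hepatocytes, so that exon 5 was removed in those cells and other liver cells kept the gene. Con contained 0.86% and MR 0.17% methionine, fed from 8 weeks of age for 8 weeks, and the mice were labelled as 5 months old and were fasted for 4 h. In the paper's 8-week experiment, energy expenditure was measured after the 8 weeks. The mice then went back to home cages before tissue was taken, so the harvest came later than 8 weeks. The libraries WT_CON_7604 and WT_MR_7612, which the study set aside by principal component analysis, were left out. That gave 5 mice in each WT group and 6 in each NRF2 KO group. The libraries were made with QuantSeq, which reads the 3′ end of each transcript.

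Depth in the 22 mice ran from 6197291 to 22068338 counts on genes, lowest in WT_MR_7615, a mouse on which several WT values below depend. Nfe2l2, the targeted gene, had 94.0 to 125 CPM (counts of a gene relative to its library total) in 9 of the 10 WT libraries and 202 to 339 CPM in NRF2 KO (2.26-fold higher than WT on MR, adjusted p = 0.0035, edgeR's test). Whether these 3′ reads lie outside the removed exon was not tested. By PCR with primers in that exon, the paper reported lower Nfe2l2 mRNA in NRF2 KO than in WT liver. It also states that every mouse was genotyped by PCR. At 324 CPM, within the NRF2 KO range, the library labelled WT_CON_7607 went against its label, and the values of the 7 genes, the list counts and the genotype values that rest on it are given also without it. All 24 libraries had at most 7 counts of Xist and at least 702 of the Y-linked Ddx3y. The 6 hepatocyte markers, Alb among them, summed to between 72978 and 128252 CPM. CPM used library totals scaled by TMM, a correction for composition, and an SD is the spread between mice.

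Cyp2b13, Cyp2b9 and Cyp2a4 are neighbours in the cytochrome P450 cluster on chromosome 7 (GRCm38, GENCODE M21, plus strand). Cyp2b13 (ENSMUSG00000040583) spans 26061497 to 26096197, Cyp2b9 (ENSMUSG00000040660) 26173411 to 26210661 and Cyp2a4 (ENSMUSG00000074254) 26307169 to 26315088. Cyp3a44 (ENSMUSG00000054417) lies on chromosome 5 from 145773983 to 145805874 and Cux2 (ENSMUSG00000042589) on the same chromosome from 121856366 to 122050102, both on the minus strand. A1bg (ENSMUSG00000022347) is on chromosome 15 from 60896859 to 60923012 and Hao2 (ENSMUSG00000027870) on chromosome 3 from 98874521 to 98893239, again on the minus strand.

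Cyp2b9 and Cyp2b13 are shown because their levels moved together from mouse to mouse, as described further on. The 250 bases before their RefSeq start sites (GRCm38.p6) were identical at 248 positions, and capitals mark the 2 that differ. The windows are chr7:26173159-26173408 for Cyp2b9 and chr7:26061245-26061494 for Cyp2b13, plus strand.
Cyp2b9: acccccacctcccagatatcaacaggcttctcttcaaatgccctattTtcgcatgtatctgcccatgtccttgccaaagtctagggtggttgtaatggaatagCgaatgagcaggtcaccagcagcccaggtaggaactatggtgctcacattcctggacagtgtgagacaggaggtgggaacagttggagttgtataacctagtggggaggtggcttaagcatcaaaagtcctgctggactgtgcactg
Cyp2b13: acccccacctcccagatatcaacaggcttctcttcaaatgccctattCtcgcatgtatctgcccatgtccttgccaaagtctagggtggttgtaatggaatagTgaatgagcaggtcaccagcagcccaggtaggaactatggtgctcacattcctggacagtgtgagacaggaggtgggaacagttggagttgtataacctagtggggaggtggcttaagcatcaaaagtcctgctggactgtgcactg

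Cyp2a4 is shown with its relative Cyp2a5 because the levels of this pair differed in pattern between the groups. Their upstream windows, chr7:26306942-26307191 and chr7:26835089-26835338 on the plus strand, aligned with 245 identical bases, 4 differing bases in capitals and an offset of 1 base at the ends.
Cyp2a4: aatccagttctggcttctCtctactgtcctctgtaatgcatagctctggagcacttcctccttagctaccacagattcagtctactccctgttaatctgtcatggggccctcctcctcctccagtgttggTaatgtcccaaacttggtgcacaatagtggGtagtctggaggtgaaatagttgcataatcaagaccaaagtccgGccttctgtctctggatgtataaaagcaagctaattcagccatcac
Cyp2a5: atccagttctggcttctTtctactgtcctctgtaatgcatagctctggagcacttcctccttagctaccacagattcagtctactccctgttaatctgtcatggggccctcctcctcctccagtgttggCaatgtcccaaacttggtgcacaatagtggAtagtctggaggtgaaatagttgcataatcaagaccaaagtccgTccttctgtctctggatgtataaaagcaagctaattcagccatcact

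Short motifs were searched on both strands of the 250 bases before each start, with 9 windows for the 8 genes because Cux2 has 2. The STAT5-type letters TTCNNNGAA were found in 2 of the 9 windows, against 7.02% of the 32851 windows in the RefSeq table. The matches were 109 bases before the start of Sult3a1 and 84 bases before that of A1bg. The letters ATCAAT were found for Cyp3a44, Sult3a1 and A1bg (6.72% of all windows), and ATCGAT for 1 window of Cux2 (0.728%). The letters TATAAA were found in 3 windows, those of Cyp2a4, Cyp3a44 and the same one of Cux2 (12.4%). In that Cux2 window the last 2 of these motifs share 1 base. A1bg is shown with its TTCNNNGAA match in capitals, at chr15:60921271-60921520, minus strand.
A1bg: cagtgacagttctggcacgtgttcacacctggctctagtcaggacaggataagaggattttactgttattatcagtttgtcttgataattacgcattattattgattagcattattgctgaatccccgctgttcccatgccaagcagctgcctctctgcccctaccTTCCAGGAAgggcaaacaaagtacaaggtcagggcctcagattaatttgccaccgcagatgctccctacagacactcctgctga

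All 7 genes were higher on MR than on Con in both genotypes by the fitted log2 fold change, which was between 1.01 and 4.14 for WT and between 0.94 and 5.73 for NRF2 KO. Over the 7 genes the medians were 3.16 (WT) and 3.80 (NRF2 KO), beside medians of -0.01 and -0.00 over all 13336 genes. Mice differed widely in how high the genes stood, and in WT no gene had every MR mouse above every Con mouse (5.32% of all genes did), while 4 of the 7 had in NRF2 KO (2.62%). Calls were made with edgeR's quasi-likelihood test at 0.05 after Benjamini-Hochberg adjustment over all genes. A standard error given below is the absolute log2 fold change divided by the square root of that test's F statistic. It was derived from the test and not estimated separately, and how well it holds for genes with few counts was not tested. Cyp2b13, Cyp2a4 and Cux2 were called higher in WT, 3 of 7, where 6.91% of all genes were called higher, and these with Cyp3a44 and A1bg made 5 of 7 in NRF2 KO, where 6.23% were. The choice of the genes used these differences, so nothing is read from the counts. For the same reason, a call kept or lost below when 1 mouse is left out shows only its dependence on that mouse.

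**Figure D1:**
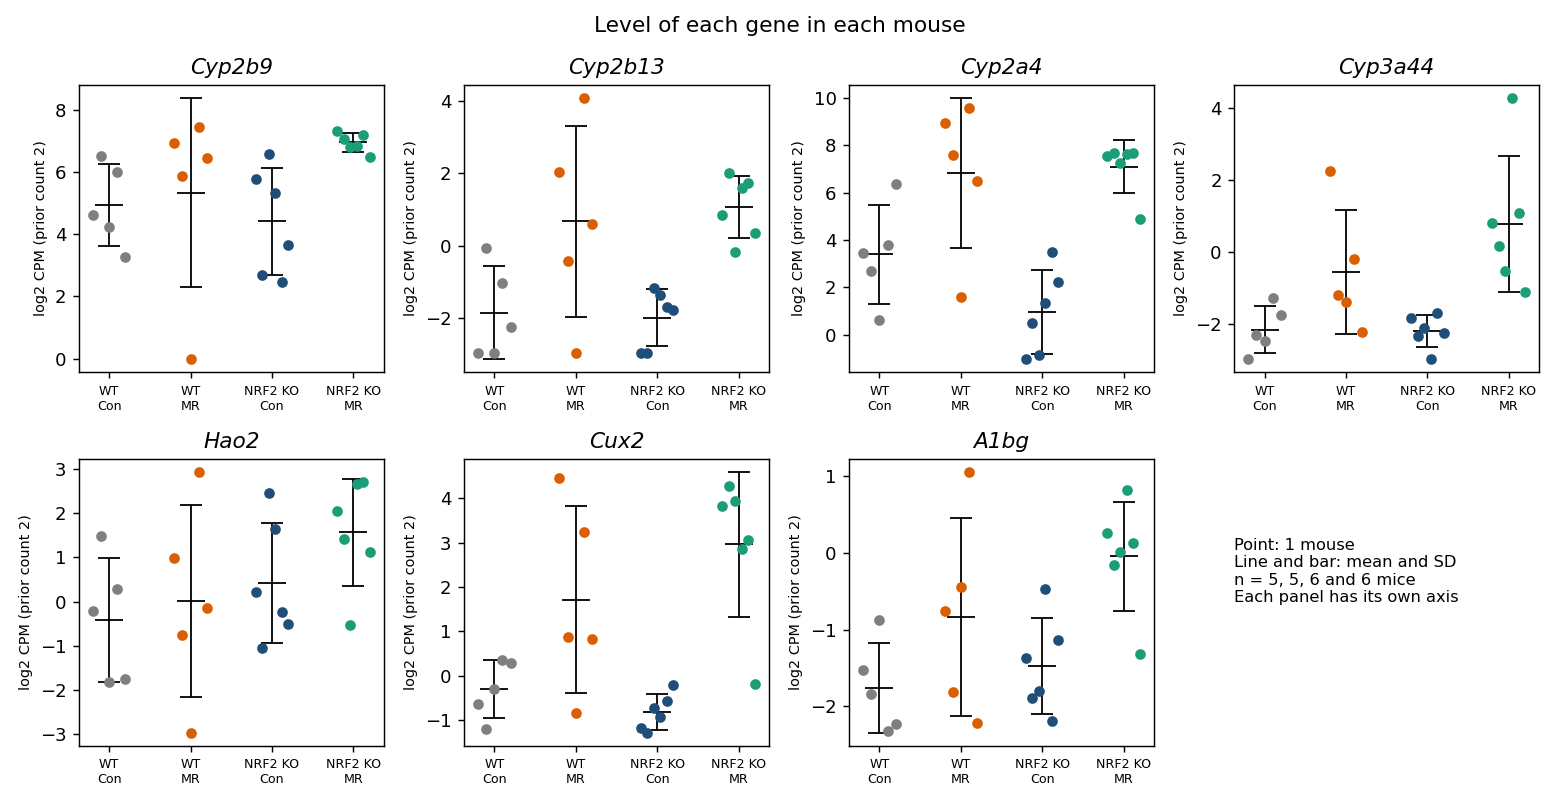
Log2 CPM (vertical axis, prior count 2) of the 7 genes in 22 mice, 1 point per mouse, with mean and SD for the 2 WT groups (n = 5 each) and the 2 NRF2 KO groups (n = 6 each), each panel with its own axis. Cyp2b9 spreads from 0.864 to 173 CPM in WT MR and from 90.2 to 160 CPM in NRF2 KO MR, and a low NRF2 KO MR mouse stands apart for Cyp2a4 and Cux2.

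Cyp2b9, a cytochrome P450 of the drug-metabolising Cyp2b family, varied widely between mice on Con. In WT Con it stood at 24.7, 92.3, 18.8, 63.8 and 9.45 CPM. In WT MR it stood at 122, 57.9, 0.864, 173 and 88.1 CPM, so that the lowest value of all 22 mice, in WT_MR_7613, came from a mouse on MR. The NRF2 KO Con mice ran from 5.45 through a median of 26.0 to 95.1 CPM, and the NRF2 KO MR mice from 90.2 through 125 to 160 CPM. In NRF2 KO the groups overlapped by 1 Con mouse that lay above the lowest MR mouse, and in WT the MR mice lay on both sides of the Con mice. Its fitted value was 1.08 on the log2 scale (standard error 0.85) in WT and 1.81 (standard error 0.78) in NRF2 KO, and neither was called.

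Cyp2b13, its close relative, was near the limit of detection on Con. WT Con mice had 0, 0.836, 0, 0.361 and 0.0840 CPM, resting on 18 reads in all, and WT MR mice had 3.98, 0.623, 0, 16.7 and 1.38 CPM, resting on 199. NRF2 KO Con ran from 0 through 0.173 to 0.319 CPM and NRF2 KO MR from 0.755 through 2.28 to 3.86 CPM. Every NRF2 KO MR mouse thus lay above every NRF2 KO Con mouse, whereas in WT 1 MR mouse had no read and WT_MR_7615 stood far above the rest. The log2 fold change was 4.14 (standard error 1.11) in WT and 3.80 (standard error 1.10) in NRF2 KO. The call in WT was lost without WT_MR_7615, where the value was 2.72, and that in NRF2 KO was lost without any 1 of 5 mice, at 3.49 to 3.72.

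Cyp2a4, a steroid hydroxylase, ran from 0.362 to 755 CPM over the 22 mice. WT Con mice had 10.97, 6.31, 1.41, 13.7 and 82.9 CPM, and WT MR mice 488, 196, 2.85, 755 and 89.7 CPM. Of the 5 WT MR mice, 4 lay above all WT Con mice, and WT_MR_7613 lay below 4 of the 5 Con mice. In NRF2 KO Con the gene ran from 0.362 through 1.82 to 11.3 CPM and in NRF2 KO MR from 29.3 through 191 to 205 CPM, without overlap, and 5 of the 6 MR mice lay between 152 and 205 CPM. The log2 fold change was 3.70 (standard error 1.11) in WT and 5.73 (standard error 1.19) in NRF2 KO. The WT call was lost without any 1 of 6 mice, the library labelled WT_CON_7607 (3.56) among them, at 3.05 to 3.56 in all. The NRF2 KO call remained in all 22 fits that left out 1 mouse.

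Cyp3a44, a female-predominant enzyme of the Cyp3a family, was at the count floor in NRF2 KO Con, where no mouse had more than 3 counts. WT Con mice had 0, 0.0760, 0.0522, 0.289 and 0.168 CPM, and WT MR mice 4.65, 0.312, 0.259, 0.753 and 0.0863 CPM. NRF2 KO Con ran from 0 through 0.0941 to 0.182 CPM and NRF2 KO MR from 0.339 through 1.32 to 19.4 CPM, again without overlap. In WT 3 of the 5 MR mice lay above the highest Con mouse, WT_MR_7609 by the widest gap. The 6 NRF2 KO Con libraries held 9 counts together and the 6 NRF2 KO MR libraries 482, of which 378 came from KO_MR_7629. The ratio of the groups after scaling by depth was 46.3, with an exact 95% counting interval from 24.2 to 102 that covers counting error only, and without KO_MR_7629 it was 12.3 (6.23 to 27.6). The fitted log2 fold change of 5.31 (standard error 1.27) in NRF2 KO was 3.43 without that mouse. In WT the fitted value of 3.34 (standard error 1.52) was 1.33 without WT_MR_7609, the mouse with 70 of the 85 WT MR counts.

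Hao2 encodes a peroxisomal oxidase of long-chain hydroxy acids. WT Con mice had 0.731, 2.66, 0.157, 1.08 and 0.168 CPM, and WT MR mice 1.86, 0.467, 0, 7.53 and 0.777 CPM. NRF2 KO Con ran from 0.352 through 0.881 to 5.36 CPM and NRF2 KO MR from 0.566 through 3.26 to 6.44 CPM. The diets overlapped in both genotypes, and only WT_MR_7615 stood above the WT Con mice. The log2 fold change of 1.01 (standard error 1.05) in WT was -0.13 without that mouse, and in NRF2 KO it was 0.94 (standard error 0.77), with no call in either.

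Cux2, a homeodomain repressor that is female-biased in liver and is known to bind and repress male-biased genes, had 0.512, 0.304, 0.678, 1.16 and 1.09 CPM in WT Con. In WT MR it had 21.8, 1.71, 0.432, 9.34 and 1.64 CPM. NRF2 KO Con mice ran from 0.282 through 0.437 to 0.738 CPM and NRF2 KO MR mice from 0.746 through 11.1 to 19.2 CPM. Of the WT MR mice 4 lay above the WT Con range and WT_MR_7613 within it, and in NRF2 KO the groups did not overlap, although KO_MR_7632 at 0.746 CPM lay next to the highest Con mouse. For Cux2 the log2 fold change was 3.16 (standard error 0.90) in WT and 4.57 (standard error 0.89) in NRF2 KO. Without WT_MR_7609 the WT value was 1.85 and was not called, the call was also lost without WT_CON_7603 or WT_CON_7605, and the NRF2 KO call remained in all 22 fits that left out 1 mouse.

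A1bg, which encodes a secreted plasma glycoprotein, had no more than 32 counts in any mouse. WT Con mice had 0.219, 0.152, 0.417, 0.0722 and 0.0840 CPM and WT MR mice 0.465, 0.156, 0.605, 1.96 and 0.0863 CPM. NRF2 KO Con ran from 0.0908 through 0.209 to 0.595 CPM and NRF2 KO MR from 0.271 through 0.922 to 1.64 CPM. The diets overlapped in both genotypes, in NRF2 KO by KO_MR_7632 alone, which lay below 2 Con mice. For A1bg the log2 fold change was 1.43 (standard error 0.69) in WT and 1.81 (standard error 0.53) in NRF2 KO, where the call was lost without any 1 of 4 mice.

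**Figure D2:**
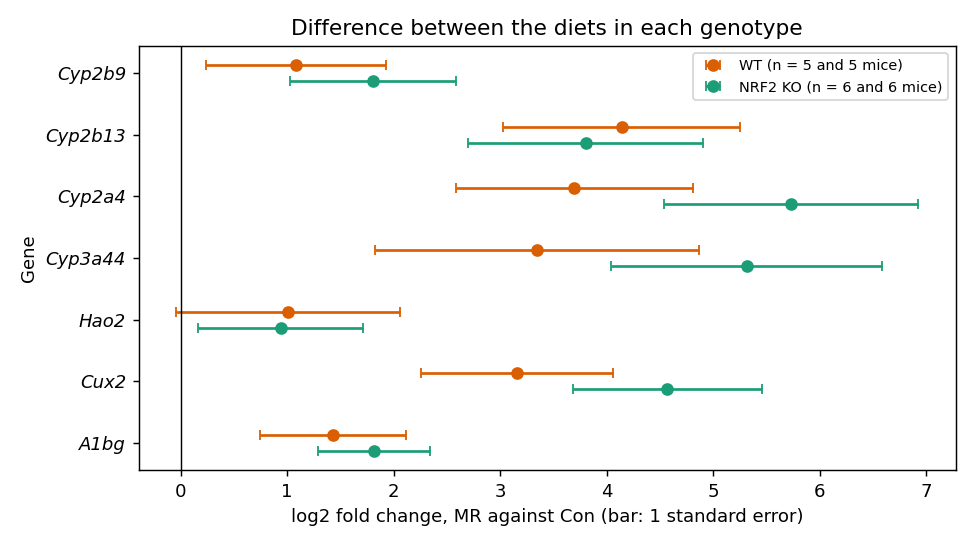
Fitted log2 fold change of MR against Con (horizontal axis) for each gene in WT (n = 5 and 5 mice) and NRF2 KO (n = 6 and 6 mice), with bars of 1 standard error. All 14 points lie to the right of 0, from 0.94 for Hao2 to 5.73 for Cyp2a4, both in NRF2 KO. The standard errors were derived from the F statistic of edgeR's test.

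The mice differed in how many of the 7 genes they had above the range of the Con mice of their genotype. In WT MR the number was 7 in WT_MR_7615, 6 in WT_MR_7609, 3 each in WT_MR_7611 and WT_MR_7616, and 1 in WT_MR_7613. In NRF2 KO MR it was 6 or 7 in 5 mice and 4 in KO_MR_7632. WT_MR_7613 had the lowest WT MR value of 5 genes, and KO_MR_7632 the lowest NRF2 KO MR value of 5. These same mice had the highest MR values in their genotype of Hsd3b5, a steroid dehydrogenase gene that pulsatile growth hormone keeps on, at 8.13 CPM in WT_MR_7613 and 20.1 CPM in KO_MR_7632. Hsd3b5 was at most 1.04 CPM in the other WT MR mice and at most 1.13 CPM in the other NRF2 KO MR mice. In the Con mice kept, Hsd3b5 ran from 12.01 to 189.9 CPM over both genotypes. Of the libraries left out, WT_CON_7604 had 0.418 CPM, within the range of the MR mice, and WT_MR_7612 had 0.167 CPM.

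Without WT_MR_7613 the 3 calls in WT were again 3, and without KO_MR_7632 the 5 calls in NRF2 KO were again 5. Without the library labelled WT_CON_7607 the WT values were 1.30 for Cyp2b9, 4.34 for Cyp2b13, 3.56 for Cyp2a4, 3.81 for Cyp3a44, 3.32 for Cux2, 1.26 for A1bg and 1.09 for Hao2. Cyp2b13 and Cux2 were then called. The number called was also 2 without WT_CON_7602, and 1 without any of WT_CON_7603, WT_CON_7605, WT_MR_7609 and WT_MR_7615. Fitted on the WT groups alone, where 3 of the 7 did not pass the filter, or by limma on the normalized counts, 0 genes were called in WT, and DESeq2 called 4.

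Summed markers of Kupffer cells (9 of 9 markers counted), stellate cells (7 of 7) and bile duct cells (5 of 5) were lower on MR, with medians in WT Con and WT MR of 473 and 352, 481 and 359, and 54.1 and 25.6 CPM. In NRF2 KO the same medians were 461 and 373, 487 and 434, and 39.7 and 25.3 CPM. The ranges overlapped between the diets for Kupffer markers in NRF2 KO and for stellate markers in both genotypes. Their part in the differences between the diets was not tested, and in bulk liver fewer cells of a type and less RNA per cell cannot be told apart. The adipose markers (3 of 4 counted) ran from 18.3 to 27.3 CPM in WT Con and from 11.8 to 13.04 CPM in WT MR, without overlap. In NRF2 KO they overlapped, from 14.1 to 28.5 CPM on Con and from 10.9 to 17.9 CPM on MR, with medians of 16.7 and 14.1 CPM. The endothelial markers (6 of 6) had medians of 285 and 277 CPM in WT and of 286 and 293 CPM in NRF2 KO. The 6 hepatocyte markers also had lower summed medians on MR, 82379 against 106609 CPM in WT and 98980 against 119572 CPM in NRF2 KO. Of these 6, 2 were called in a diet comparison, beside 13.8% (WT) and 12.6% (NRF2 KO) of all genes. The numbers called were 5 of 9 for Kupffer, 5 of 7 for stellate and 4 of 5 for bile duct markers. The sums therefore do not show a fall of each marker.

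The comparison of NRF2 KO with WT asked whether hepatic NRF2 loss alone moved these genes, and it was not used to choose them. On Con, 0 of the 7 genes were called, where 2.07% of all genes were (1.27% lower in NRF2 KO), and edgeR's smallest adjusted p among them was 0.23. DESeq2 called 0 of them as well, and 1 of the 7 had an unadjusted p under 0.05, as did 1917 of all 13336 genes. That gene was Cyp2a4, whose mean over the Con mice was 23.1 ± 33.8 CPM (SD, n = 5) for WT and 3.37 ± 4.16 CPM (SD, n = 6) for NRF2 KO. Its log2 fold change was -2.95 (2 standard errors either side, -5.26 to -0.64), and an exact two-sided permutation test of log2 CPM over mice gave p = 0.065, or 0.58 adjusted over 14 such tests. With WT_CON_7607 left out the value was -3.10 (adjusted p = 0.23, edgeR's test). It was -1.39 (adjusted p = 0.68, edgeR's test) without WT_CON_7608, which held 1974 of the 2424 counts of Cyp2a4 in WT Con, and -3.84 without KO_CON_7622. For the other 6 genes the fitted values lay between -0.79 for Cux2 and 1.14 for Hao2, and without WT_CON_7607 between -0.64 and 1.23.

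On MR, again 0 of 7 were called, where 1.93% of all genes were (0.555% higher), and none had groups without overlap (1.69% of all genes lay above and 2.91% below), with edgeR's smallest adjusted p at 0.44, no unadjusted p under 0.05, and 0 calls by DESeq2. Cyp3a44 had the largest fitted value, 1.72 (2 standard errors either side, -0.15 to 3.59), which was -0.15 without KO_MR_7629, the mouse that held most of its counts. A1bg stood at 0.84 (-0.22 to 1.89), Hao2 at 1.07 (-0.69 to 2.83), Cux2 at 0.62 (-0.73 to 1.97) and Cyp2b9 at 0.52 (-1.07 to 2.12). Cyp2a4 stood at -0.91 (-2.81 to 0.99) and Cyp2b13 at -0.85 (-2.42 to 0.72). Both directions turned by limma, to 0.28 and 0.58, and that of Cyp2b13 also turned without WT_MR_7615, to 0.56.

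The interaction asked whether MR moved the genes by different amounts in the genotypes. None of the 7 was called, beside 0.0450% of all genes (0.0225% in each direction), with edgeR's smallest adjusted p at 0.80, no unadjusted p under 0.05, and 0 calls by DESeq2. Cyp2a4 gave 2.04 (2 standard errors either side, -0.97 to 5.04), which was 0.47 without WT_CON_7608 and 2.93 without KO_CON_7622. Cyp3a44 gave 1.97 (-3.18 to 7.11), which was 0.10 without KO_MR_7629 and 3.99 without WT_MR_7609. Cux2 gave 1.41 (-1.35 to 4.17), and 2.72 without WT_MR_7609. Cyp2b9 gave 0.72 (-1.54 to 2.99), A1bg 0.38 (-1.47 to 2.24), Hao2 -0.07 (-2.56 to 2.43) and Cyp2b13 -0.34 (-4.29 to 3.62). Each of the 7 intervals includes 0. With WT_CON_7607 left out, again none was called, and the values were 2.18 for Cyp2a4, 1.51 for Cyp3a44, 1.25 for Cux2, 0.51 for Cyp2b9, 0.55 for A1bg, -0.16 for Hao2 and -0.53 for Cyp2b13.

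**Figure D3:**
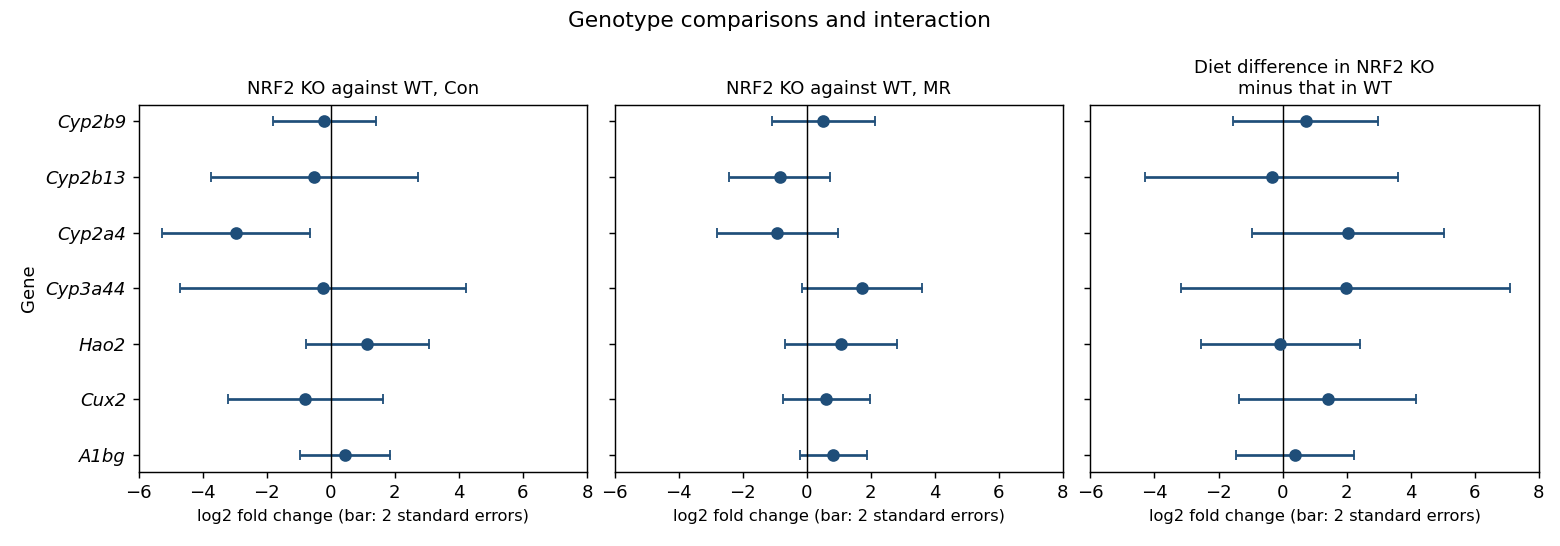
Fitted log2 fold changes with bars of 2 standard errors (horizontal axes) for NRF2 KO against WT on Con, the same on MR, and the interaction, each over the 22 mice. In the 3 panels 20 of the 21 bars cross 0, and that of Cyp2a4 on Con does not. The standard errors were derived from the F statistic of edgeR's test.

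Within the groups, some of the genes went up and down together from mouse to mouse. Deviations of log2 CPM from the group mean were compared for 21 pairs in 22 mice, so that the group differences used to choose the genes were removed, with permutation tests of 100000 resamples and adjustment over the pairs. Pearson's r ran from 0.06 to 0.86, and 4 pairs passed an adjusted p of 0.05 by r and by Spearman's rho. Cyp2b13 and Hao2 were the closest (r = 0.86, permutation p = 1e-05, the smallest that 100000 resamples can give, and rho = 0.82), followed by Cyp2b9 and Hao2 (r = 0.80, rho = 0.78, adjusted permutation p = 0.00021 for r). Cyp2b9 and Cyp2b13, whose upstream sequences are shown above, had r = 0.73 (rho = 0.63, adjusted permutation p = 0.011), and Cyp2a4 and Cux2 had r = 0.70 (rho = 0.66, adjusted permutation p = 0.0038).

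Without the 2 mice farthest from the median of the first gene, these 4 values of r were 0.76, 0.77, 0.63 and 0.65. Cyp2b9 and Cyp2a4, neighbours on chromosome 7, had r = 0.34 (rho = 0.04, adjusted permutation p = 0.35), and -0.02 without 2 mice. A1bg had no pair past the threshold. Libraries share their depth across all genes, and the low genes rest on few counts.

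**Figure D4:**
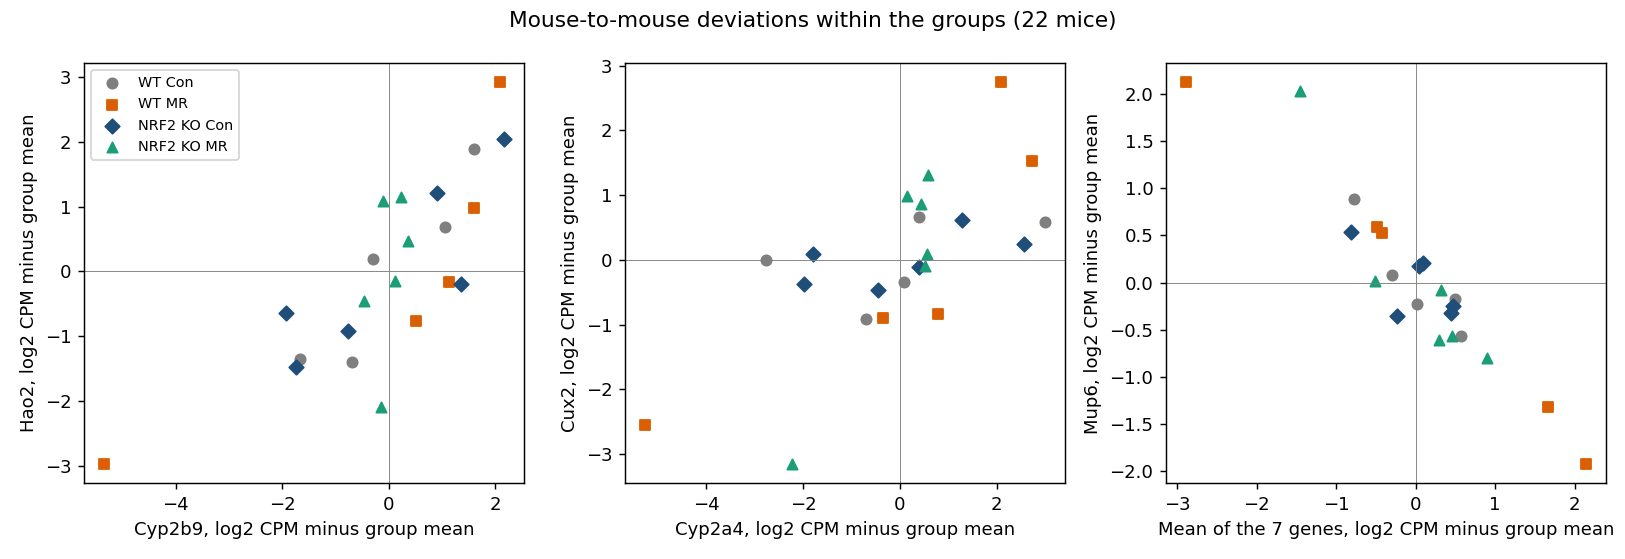
Log2 CPM minus the group mean in 22 mice, 1 point per mouse and a symbol per group, for Hao2 against Cyp2b9, Cux2 against Cyp2a4, and the major urinary protein gene Mup6 against the mean of the 7 genes. The first and second panels rise to the right (r = 0.80 and 0.70), the last falls (r = -0.95), and WT_MR_7613 is the point farthest to the left in each.

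Over the 11991 other genes with a mean of at least 1 CPM, those whose deviations were most like the mean deviation of the 7 genes were Slco1a4 (r = 0.95), an organic anion transporter, Vldlr (r = 0.86), a lipoprotein receptor, Slc22a27 (r = 0.86), an organic anion transporter of another family, Trim24 (r = 0.83), a nuclear receptor coregulator, and Acot4 (r = 0.80), a peroxisomal thioesterase. At the other end stood Mup6 (r = -0.95), Serpina3k (r = -0.94), a protease inhibitor gene, and Mup21 (r = -0.91). Many Mup genes are near-identical copies, so counts of 1 of them can be uncertain. How far this holds for Mup6 and Mup21 was not tested. All 8 kept their sign without WT_MR_7613 and WT_MR_7615, the mice with the largest absolute mean deviation of the 7 genes. Then r ran from 0.69 to 0.89 and from -0.93 to -0.86. These values describe 22 points and were picked from all these genes. For Slco1a4, r was 0.62 over all 24 mice.

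Other genes of the same pathway were taken from lists compiled with earlier results of these data known. Of 22 other female-biased genes, 15 had counts and 12 were tested, and of these 4 rose with MR in WT and 7 in NRF2 KO, beside 6.91% and 6.23% of all genes called higher, with none lower. The WT count was 2 with WT_CON_7607 left out. Their median log2 fold changes were 0.87 and 1.61. Cyp2a22 rose by 2.94 (standard error 0.60) and 3.98 (standard error 0.57). Slc22a27 rose in NRF2 KO by 2.65 (standard error 0.59), and its WT value was 1.91 (standard error 0.66). Atp6v0d2, a proton pump subunit, was the 1 gene of this list called between genotypes, at 9.48 ± 1.36 CPM (SD, n = 6) on MR against 4.66 ± 1.91 CPM (SD, n = 5) for WT, or 1.05 on the log2 scale (adjusted p = 0.031, edgeR's test), with an interaction of 1.23 (adjusted p = 0.37, edgeR's test), which was 0.98 without the library labelled WT_CON_7607.

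Of 24 listed male-biased genes, 23 were tested, and 8 fell in WT and 19 in NRF2 KO, beside 6.91% and 6.34% of all genes called lower, with medians of -1.45 and -2.74. Mup11, a major urinary protein gene, had -4.47 (standard error 1.33) in WT and -5.62 (standard error 1.28) in NRF2 KO, and Hsd3b5 had -4.89 (standard error 1.13) and -4.84 (standard error 0.94). Mup1 had -3.29 (standard error 0.99) and -4.06 (standard error 1.03). Reads of Mup11 and Mup1 may be shared with other Mup genes, which was not tested. Ugt2b1, a glucuronosyltransferase, had -0.04 (standard error 0.24) in WT and -1.71 (standard error 0.22) in NRF2 KO, and on MR it stood at 86.9 ± 15.8 CPM (SD, n = 6) in NRF2 KO and 370 ± 39.7 CPM (SD, n = 5) in WT. That difference was -2.09 on the log2 scale (adjusted p = 1.3e-05, edgeR's test), and the interaction was -1.66 (adjusted p = 0.064, edgeR's test). Leaving out WT_CON_7607, the interaction of Ugt2b1 was -1.49 and was called (adjusted p = 0.035, edgeR's test). The number of male-biased genes lower in WT was 13 without WT_MR_7613, 7 without WT_CON_7607, 5 without WT_CON_7605, 4 without WT_MR_7611, and 3 without WT_MR_7609, WT_MR_7615 or WT_MR_7616.

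Among 12 tested genes of growth hormone signalling, 2 fell in each genotype, beside 6.91% (WT) and 6.34% (NRF2 KO) of all genes called lower, and none rose. The WT count was again 2 with WT_CON_7607 left out. Ghr, the growth hormone receptor, fell by 0.74 (standard error 0.17) in WT and by 0.81 (standard error 0.15) in NRF2 KO on the log2 scale, and Igf1, the circulating growth factor made under growth hormone control, fell by 0.36 (standard error 0.11) and by 0.38 (standard error 0.10). Ghr stood at 422 ± 72.3 and 252 ± 43.8 CPM (SD, n = 5 each) in WT Con and WT MR. The other 10 genes, among them Stat5b, Jak2, Socs2 and Cish, were not called in either genotype.

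Of 17 regulators of such genes, 1 rose in WT, and 3 rose and 3 fell in NRF2 KO. Of all genes 6.91% were called higher in WT, and 6.23% higher and 6.34% lower in NRF2 KO, so the WT share was near that of all genes. Leaving out WT_CON_7607, the WT count was again 1. Por, the reductase that passes electrons to cytochrome P450 enzymes, rose by 1.32 (standard error 0.24) in WT and 1.13 (standard error 0.22) in NRF2 KO. Esr1, the oestrogen receptor, had 0.09 (standard error 0.20) and rose by 0.54 (standard error 0.18) in NRF2 KO.

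The near relatives of the 7 genes did not all follow them. Of 17, 10 had counts and were tested. In WT 4 rose and 1 fell, and in NRF2 KO 5 rose and 2 fell. Of all genes, 6.91% were called in each direction in WT, and 6.23% were called higher and 6.34% lower in NRF2 KO. When WT_CON_7607 was left out, 3 relatives rose and 1 fell in WT, and Cyp3a25 at 0.53 was not called. Besides Cyp2a22, Cyp3a59 rose by 1.78 (standard error 0.22) and 1.89 (standard error 0.20) and Cyp3a25 by 0.63 (standard error 0.19) and 0.58 (standard error 0.17), and Cyp2a12 had 0.37 (standard error 0.17) in WT and rose by 0.78 (standard error 0.16) in NRF2 KO. Hao1, the glycolate oxidase related to Hao2, fell by 0.83 (standard error 0.12) and by 0.98 (standard error 0.11). Cux1 had -0.11 (standard error 0.10) in WT and fell by 0.29 (standard error 0.09) in NRF2 KO. Cyp2b10, Cyp3a11 and Cyp3a13 were not called in either genotype, with values from 0.18 to 1.52.

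Cyp2a5 was the 1 relative called between genotypes. It rose by 2.92 (standard error 0.36) in WT and 1.29 (standard error 0.31) in NRF2 KO, and on MR it ran from 947 to 1777 CPM in WT and from 172 to 217 CPM in NRF2 KO, without overlap. The log2 fold change between the genotypes on MR was -2.71 (adjusted p = 5.3e-05, edgeR's test), on Con it was -1.08 (adjusted p = 0.091, edgeR's test), and the interaction was -1.62 (adjusted p = 0.32, edgeR's test). When WT_CON_7607 was left out, Cyp2a5 on Con was called at -1.32 (adjusted p = 0.0069, edgeR's test), and the interaction was -1.39 (adjusted p = 0.30, edgeR's test). Cyp2a12 was then also called on Con, at -0.56 (adjusted p = 0.014, edgeR's test). In WT_MR_7613, the mouse with the lowest Cyp2a4 of WT MR at 2.85 CPM, Cyp2a5 was the highest of the WT MR mice kept, at 1777 CPM. WT_MR_7612, left out of the comparisons, had 2101 CPM of Cyp2a5 and 1313 CPM of Cyp2a4.

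The counting of this pair is uncertain. Of the words of 50 bases in the last 500 bases of the Cyp2a4 transcript, 44.3% also occur in another gene, mostly Cyp2a5, and of words of 75 bases 23.7% do, where the sources give read lengths of 50 and 75. With both genes summed, the value on MR between genotypes was -2.15 and was called (adjusted p = 0.00076, edgeR's test), a sum in which Cyp2a5 holds most of the counts. For Cyp3a44 the shares were 35.3% and 17.1%, mostly with a pseudogene, Cyp3a63-ps, and for Cyp2b13 7.54% and 2.11%, with Cyp2b10. Cyp2b9, Cux2, A1bg and Hao2 had no such word in another gene.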

How the data were processed

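The authors made a QuantSeq library from the liver of each of 24 mice and ran Lexogen's forward-read pipeline on the Bluebee platform. The submitters' notes name GRCm38 (mm10), R 3.4.3 and DESeq2 1.18.1, and the aligner and annotation are not given in the sources used here. The count values are raw reads per gene as deposited by the authors. A second deposited table holds normalized signal, in which each count is scaled by its library's DESeq2 size factor, used for 1 alternative. Of 15160 genes, 15119 were named, through the deposited table and GENCODE M21.

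Counts were fitted in R 4.3.3 with edgeR 4.0.16 (TMM, filterByExpr, robust quasi-likelihood F-tests, 1 mean per group, Benjamini-Hochberg adjustment over all genes, threshold 0.05) in 22 mice, median depth 15019791.5 counts. DESeq2 values were rounded to 6 significant digits, and log2 CPM used a prior count of 2. The fit was also run on simulated counts with known changes in NRF2 KO MR, set in genes drawn at random. Its outcome is not reported here, and genes with few counts were not examined separately. Exact permutation tests, correlations and promoters were computed in Python 3.11.15 with scipy 1.17.1, and alignments with Biopython 1.88.

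The genes described and the lists were chosen with earlier results of these data known. Named besides the 8 genes were Nfe2l2, sex markers, near relatives with counts, the 3 largest called diet changes of each list with a mean of at least 1 CPM, list genes called between genotypes or in the interaction, and the 5 most and 3 least alike genes. Some genes that this rule names are not reported here. Stat5b, Jak2, Socs2, Cish and Alb were named after their values were seen. Alternatives were DESeq2 1.42.0, limma 3.58.1 on log2 of the signal plus 1, other scalings and filters, only the groups compared, all 24 mice, Cyp2a4 and Cyp2a5 summed, and each mouse left out.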

Additional observations from a re-analysis of the deposited data

Results flagged for a closer look

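In 3 of 28 groups of 5 or 6 mice, 1 mouse lay apart from the rest by Dixon's ratio on log2 CPM. The ratio is the gap from that mouse to its nearest neighbour over the whole range of the group. By chance such a mouse appears in about 1 in 20 groups. The levels below are given in CPM, a scale on which these ratios do not hold. Cyp2b9 was low in WT_MR_7613 (0.864 CPM, ratio 0.788). In KO_MR_7632 Cyp2a4 (29.3 CPM, ratio 0.847) and Cux2 (0.746 CPM, ratio 0.685) were low.

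WT_MR_7612, a library left out of the comparisons, had all 7 genes above the WT Con range of the mice kept. Its Cyp2b9 was 97.0 CPM, its Cyp2b13 4.29 CPM and its Cyp2a4 1313 CPM, the last above all 22 mice. Its Cyp3a44 was 1.46 CPM, its Cux2 28.0 CPM, its A1bg 0.583 CPM and its Hao2 18.1 CPM, with Cux2 and Hao2 again above all 22 mice.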

How the results depend on the processing

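Most alternatives kept the direction of the fitted fold changes: of 1038 values under another setting 27 turned direction, and none of these was called both before and after. The number of the 7 genes called between the diets was 0 in WT and 0 in NRF2 KO with at least 10 counts required in every mouse, which left only Cyp2b9 (medians 1.06 and 1.80), 0 in WT by limma, and 0 in WT and 3 in NRF2 KO with only the groups compared. With Cyp2a4 and Cyp2a5 summed, the NRF2 KO median was 2.10, 1 gene was called between genotypes on MR, and the interaction of the sum was -0.94. With 1 mouse left out, 1 to 4 genes were called in WT and 3 to 5 in NRF2 KO.

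For genotype on MR, limma gave 0.58 for Cyp2b13 and 0.28 for Cyp2a4, and all 24 mice gave -0.0046 for Cux2 and -0.41 for Hao2. For the interaction, limma gave 0.68 for Cyp2b13 and 0.86 for Hao2. Leaving out 1 mouse, genotype on Con ran from -0.78 to 0.31 for Cyp2b9, from -0.94 to 0.58 for Cyp2b13 and from -0.51 to 0.21 for Cyp3a44. On MR it ran from -1.19 to 0.56 for Cyp2b13 and from -0.15 to 3.74 for Cyp3a44. The interaction ran from -1.42 to 1.08 for Cyp2b13, from -0.19 to 1.10 for A1bg and from -0.92 to 1.07 for Hao2. The cause of these shifts was not tested.

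Over all 24 mice 2 regulators were called higher in WT and 1 relative lower in NRF2 KO. Of the 8 genes named as most or least alike, 3 were chosen by Spearman's rho as well and 4 over all 24 mice. With 1 mouse left out, WT calls ran from 2 to 6 for female-biased genes higher, 3 to 13 for male-biased genes lower, 1 to 2 for growth hormone signalling genes lower and 1 to 3 for regulators higher. In NRF2 KO they ran from 0 to 1 for signalling genes higher and 1 to 2 for relatives lower.

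No paired analysis was possible because the mouse numbers are not shared between groups. Scaling by library size alone moved the median of all genes to 0.09 in WT and 0.15 in NRF2 KO, and the genes called higher and lower over all genes were then 1434 and 526 in WT and 2397 and 388 in NRF2 KO, against 922 and 921, and 831 and 846. Cyp2b13, Cyp3a44 and A1bg rest on few counts on Con, which limits their fold changes. Sums with Cyp3a41 and Sult3a2 were not run, since these were not analysed here.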
